A study of Homo sapiens with 34 samples.

Results

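DBP, TEF and HLF are the PAR-bZIP transcription factors, and NFIL3 (also called E4BP4) is the basic leucine zipper factor that binds the same DNA element. The 4 genes were taken as the rows of the deposited expression tables that carry their symbols, which gave 4 of 28690 loci, together with the BMAL1/CLOCK binding sites named after them, which numbered 6 of 439 in the 6AN list and 4 of 147 in the control list. Both groups were of the same human osteosarcoma line, U2OS, with the stably expressed reporter *Bmal1*:*luc*, in which the promoter of *Bmal1* drives luciferase. For RNA-seq, cells synchronized with dexamethasone were cultured with DMSO (control) or with 5 mM 6AN, an inhibitor of the NADPH-producing enzymes of the pentose phosphate pathway. RNA was taken every 4 hr at 12 labelled circadian times from 0 to 44 hr, with 1 library for each time and group, 24 in all. The study's methods describe RNA extraction in triplicate, and whether the extracts of a time point were pooled is not given in the sources used here. For ChIP-seq, BMAL1, CLOCK, H3K4me3, H3K9ac and input were measured after 24 hr with DMSO or 6AN, again with 1 library each, 10 in all. Since all libraries came from 1 cell line without replicate libraries, errors below are jackknife standard errors (SE) over the 12 time points or counting intervals, and neither holds the variation between experiments.

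In the circadian clock, BMAL1 and CLOCK bind E-boxes (CACGTG) in clock-controlled genes, and *DBP*, *TEF* and *HLF* are classical outputs of this step. Their proteins activate transcription from D-boxes, whereas NFIL3 represses from the same element. *NFIL3* itself is a known target of the ROR activators and REV-ERB repressors, so its mRNA usually runs opposite to that of the PAR-bZIP genes. D-boxes lie in *Period* and other clock genes and in genes of detoxification, heme and vitamin B6 metabolism.

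The promoter windows of the members, each 250 bases before and 50 bases after a RefSeq start site (GRCh38.p14), are shown because BMAL1/CLOCK sites overlapped 4 of them. All 4 genes matched the RefSeq table, with 7 windows in all. The called peak itself overlapped the windows of the outer *TEF* promoter and of *HLF*, whereas the called peaks at the inner *TEF* promoter and at *DBP* lay just outside their windows. Both *TEF* windows, the *DBP* window and 1 of 2 *HLF* windows overlapped a BMAL1/CLOCK site, and an *NFIL3* window is shown because it held 1 of the searched elements. In all, 5 sets of letters were searched on both strands, the E-box CACGTG, the D-box forms TTACGTAA and TTATGTAA, and the ROR-element forms TAGGTCA and TGGGTCA. Matches are in capitals, and windows are written 5′ to 3′ on the strand of the gene.
TEF outer promoter, chr22:41367205-41367504, plus strand: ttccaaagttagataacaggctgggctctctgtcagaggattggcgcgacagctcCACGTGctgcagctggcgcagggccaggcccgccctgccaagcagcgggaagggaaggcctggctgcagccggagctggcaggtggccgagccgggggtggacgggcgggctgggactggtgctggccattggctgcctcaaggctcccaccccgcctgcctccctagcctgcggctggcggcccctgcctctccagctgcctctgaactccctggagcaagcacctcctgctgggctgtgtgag
TEF inner promoter, chr22:41381692-41381991, plus strand: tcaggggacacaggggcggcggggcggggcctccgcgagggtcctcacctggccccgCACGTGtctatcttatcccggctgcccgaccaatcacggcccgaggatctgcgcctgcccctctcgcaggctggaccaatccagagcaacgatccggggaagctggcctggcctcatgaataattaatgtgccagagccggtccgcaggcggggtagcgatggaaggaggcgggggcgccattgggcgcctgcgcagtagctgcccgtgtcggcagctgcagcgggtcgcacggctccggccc
DBP promoter, chr19:48637330-48637629, minus strand: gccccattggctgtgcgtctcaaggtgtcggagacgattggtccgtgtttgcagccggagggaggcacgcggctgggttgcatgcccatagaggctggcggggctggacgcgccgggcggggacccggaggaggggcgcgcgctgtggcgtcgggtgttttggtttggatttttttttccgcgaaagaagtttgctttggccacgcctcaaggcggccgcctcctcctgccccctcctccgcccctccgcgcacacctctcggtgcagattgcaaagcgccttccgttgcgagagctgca
HLF promoter, chr17:55264710-55265009, plus strand: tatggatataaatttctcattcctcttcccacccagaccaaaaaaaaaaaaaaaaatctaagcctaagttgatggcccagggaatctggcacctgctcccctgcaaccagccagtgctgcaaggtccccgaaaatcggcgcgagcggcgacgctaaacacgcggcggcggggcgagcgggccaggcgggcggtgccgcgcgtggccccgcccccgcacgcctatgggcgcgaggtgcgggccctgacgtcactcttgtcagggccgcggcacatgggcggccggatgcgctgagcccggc
NFIL3 promoter, chr9:91423783-91424082, minus strand: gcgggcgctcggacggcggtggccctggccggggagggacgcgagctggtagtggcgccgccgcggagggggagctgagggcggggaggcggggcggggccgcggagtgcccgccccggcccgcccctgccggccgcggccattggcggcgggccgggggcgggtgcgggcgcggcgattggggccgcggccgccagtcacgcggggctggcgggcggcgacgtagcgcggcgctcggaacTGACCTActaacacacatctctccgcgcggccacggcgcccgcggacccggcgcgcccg

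Each *TEF* window held a CACGTG, at 195 to 190 bases before the outer start site and at 193 to 188 bases before the inner start site. The *DBP* window, both *HLF* windows and both *NFIL3* windows held none. CACGTG was in 7.26% of all 35116 RefSeq promoter windows of this length. The *NFIL3* window held TAGGTCA on the opposite strand, 9 to 3 bases before the start site, and these letters were in 1.85% of all windows. No member window held TTACGTAA, TTATGTAA or TGGGTCA, which were in 0.125%, 0.886% and 3.92% of all windows. A match describes letters in these windows and is not evidence of binding, and an absent match says only that the letters were not in them.

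Osteoblast lineage markers were read to check the line. *RUNX2* had a mean of 14 FPKM in control and 13.9 in 6AN, and *SPARC* had 323 and 129, whereas *COL1A2* and *SP7* stayed below 0.05 FPKM in both. The epithelial keratin gene *KRT8* had means of 102 and 51.4, and the blood marker *PTPRC* and the liver marker *ALB* stayed below 0.1. Set against the median library of the same table, RNA-seq depth lay between 0.581 and 1.31 in control and between 0.696 and 1.55 in 6AN, and ChIP-seq libraries held between 1409550 and 33273106 tags. Their part in the results below was not tested.

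*DBP* and *TEF*, the expressed PAR-bZIP genes, peaked almost together in both conditions. *NFIL3* ran broadly opposite to them, less clearly in control, and *HLF* was near the limit of detection. The order of the levels in control was *DBP* at 17.6 ± 5.38 FPKM (SD over 12 time points), *TEF* at 11.4 ± 3.09, *NFIL3* at 10.1 ± 1.84 and *HLF* at 0.253 ± 0.12. *DBP* was above *TEF* at 12 of 12 time points in each condition. *TEF* and *NFIL3* differed by less than their spread over time, with *TEF* the higher at 7 of 12 time points in control and at 5 of 12 in 6AN. In 6AN the means were 19.6 ± 5.98 for *DBP*, 16.3 ± 3.52 for *NFIL3*, 13.7 ± 4.73 for *TEF* and 0.388 ± 0.174 for *HLF*. FPKM is scaled for transcript length, so levels could be compared between genes, but the control and 6AN tables were normalized separately and levels across them are given side by side without a test. In bulk RNA, fewer expressing cells and less RNA per cell cannot be told apart.

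**Figure D1:**
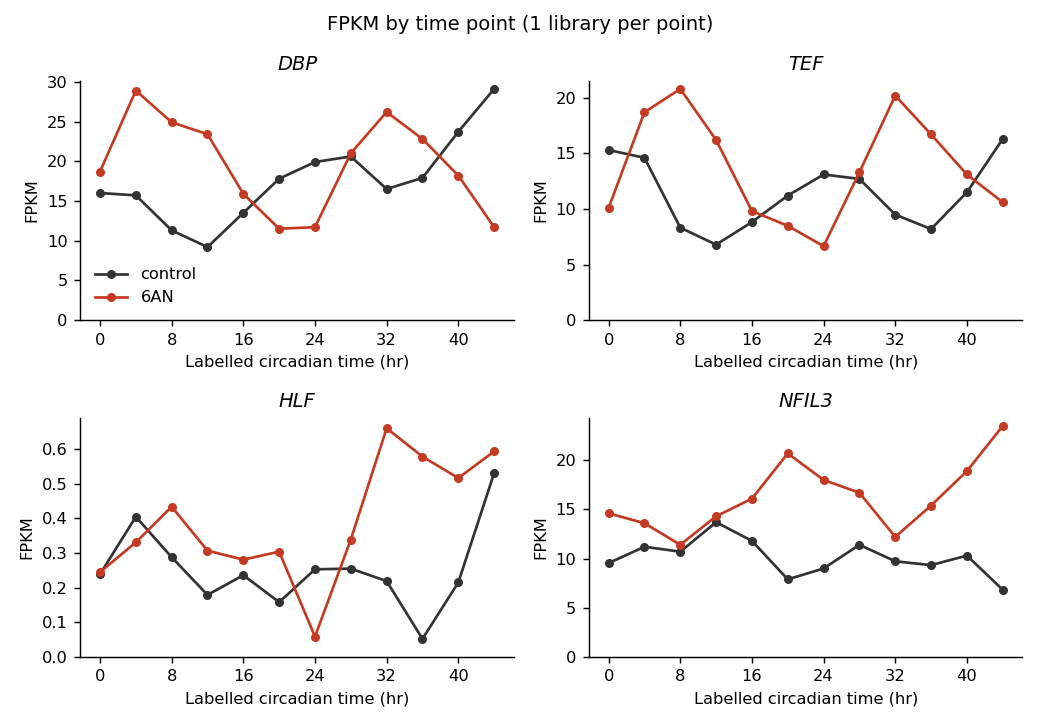
FPKM of *DBP*, *TEF*, *HLF* and *NFIL3* (y axes from 0, separate scale per gene) against labelled circadian time in hr, with control in dark grey and 6AN in red, 1 library per point. In 6AN, *DBP* and *TEF* are low at 20 to 24 hr, where *NFIL3* is high, and all *NFIL3* points of 6AN lie above those of control at the same time.

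*DBP*, which activates D-box genes and is among the most strongly rhythmic outputs of the clock in many tissues, started in control at 16 FPKM at 0 hr and passed through 15.7, 11.3, 9.19, 13.5 and 17.8 to 19.9 at 24 hr. It went on with 20.6, 16.5, 17.9, 23.7 and 29.1 FPKM from 28 to 44 hr. The control series thus had low points at 12 and 32 hr on a rising baseline, and its 44 hr library was the highest of all 12. In 6AN, *DBP* had 18.7, 28.9, 24.9, 23.4, 15.9 and 11.5 FPKM from 0 to 20 hr. From 24 to 44 hr it had 11.7, 21, 26.2, 22.8, 18.2 and 11.7 FPKM. The 6AN series had high points at 4 and 32 hr and low points at 20 and 44 hr, and it was at a low point at 44 hr, where control was highest.

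In control, *DBP* was higher on the second day than on the first at 6 of 6 phases, with means of 21.3 and 13.9 FPKM, a pattern shown by 6.07% of the 14678 tested loci. In 6AN it was higher on the second day at 3 of 6 phases, with means of 18.6 and 20.6 FPKM.

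*TEF*, a PAR-bZIP activator close to DBP in its DNA-binding domain, had 15.3, 14.6, 8.31, 6.79, 8.82 and 11.2 FPKM in control from 0 to 20 hr. From 24 to 44 hr it had 13.1, 12.7, 9.49, 8.19, 11.5 and 16.3 FPKM, so its low points were at 12 and 36 hr. In 6AN, *TEF* had 10.1, 18.7, 20.8, 16.2, 9.81 and 8.48 FPKM from 0 to 20 hr. It then had 6.65, 13.3, 20.2, 16.7, 13.1 and 10.6 FPKM from 24 to 44 hr. *TEF* was thus highest at 8 and 32 hr and lowest at 24 hr in 6AN, and the ranges of the conditions, 6.79 to 16.3 and 6.65 to 20.8 FPKM, overlapped.

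*NFIL3*, the repressor of the D-box, had 9.54, 11.2, 10.7, 13.7, 11.8 and 7.88 FPKM in control from 0 to 20 hr. From 24 to 44 hr it had 8.99, 11.4, 9.72, 9.33, 10.3 and 6.82 FPKM. Its control range was narrow, with the high point at 12 hr, where *DBP* and *TEF* were lowest, and the low point at 44 hr, where both were highest. In 6AN, *NFIL3* had 14.6, 13.6, 11.4, 14.3, 16.1 and 20.7 FPKM from 0 to 20 hr. It had 18, 16.7, 12.2, 15.4, 18.9 and 23.5 FPKM from 24 to 44 hr. The 6AN series had high points at 20 and 44 hr and low points at 8 and 32 hr, and it was higher on the second day at 6 of 6 phases, as were 10.7% of the tested loci.

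*HLF*, the third PAR-bZIP activator, is best known from liver and brain and was barely detected in these cells. It lay between 0.0519 FPKM (36 hr) and 0.531 FPKM (44 hr) in control, with a median of 0.237. In 6AN it lay between 0.0584 FPKM (24 hr) and 0.661 FPKM (32 hr), with a median of 0.335. All *HLF* values were whole multiples of 1 step per library within 0.006, which read as 2 to 15 fragments per library in control and 2 to 34 in 6AN, 107 and 172 in all. At this depth no rhythm could be read for *HLF*, and its mean FPKM was under the minimum of 0.7 set for testing, so 3 of the 4 members were tested.

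The question of the time course is whether the rhythm of each transcript changed when the pathway was inhibited. In 6AN, all 3 tested members, *DBP*, *TEF* and *NFIL3*, were rhythmic by an umbrella rank test (a permutation test for a rise and a fall over 24 hr, called at an unadjusted p of at most 0.01). The p values were 0.0081 for *DBP*, 0.00264 for *TEF* and 0.00113 for *NFIL3*. The test called 0.797% of the 14678 tested loci in 6AN, and after Benjamini-Hochberg adjustment over these loci the adjusted p was 1 for each member. In control 0 of the 3 were called, with umbrella p values of 0.462 for *DBP*, 0.0173 for *TEF* and 0.255 for *NFIL3* and 0.831% of loci called. The study used the RAIN algorithm at the same p limit and lists *DBP* and *TEF* as rhythmic in both conditions. It reports more rhythmic transcripts per condition than the 122 loci in control and 117 in 6AN called here. In each condition 0 loci had an umbrella p of at most 0.05 after adjustment, whereas 737 loci in control and 624 in 6AN were under 0.05 before it.

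Harmonic regression at 24 hr, fitted across all tested loci with limma, called *TEF* in control as well (p = 0.0005, limma adjusted p = 0.595), beside 1.04% of loci. It gave p = 0.124 for *DBP* and p = 0.0915 for *NFIL3* in control. In 6AN it called the same 3 members, with p = 0.000235 for *DBP*, 0.000301 for *TEF* and 0.00111 for *NFIL3*, limma adjusted p values of 0.432, 0.491 and 0.666, and 1.18% of loci called. The rising baseline of *DBP* in control bore on its call. With a linear trend in the limma fit its control p was 0.000548 (adjusted p = 0.383), and with the trend removed its umbrella p in control was 0.0329 in place of 0.462.

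The difference between the conditions was tested directly, as the interaction of condition with the 24 hr cosine and sine in 1 limma fit over the 24 libraries. This compares shapes fitted within each table and not levels. All 3 tested members passed at an unadjusted p of at most 0.01, where 0.783% of tested loci did. *TEF* had p = 5.98e-07, and its adjusted p of 0.0022 was among the 7 of 14678 loci with an adjusted p of at most 0.05. *DBP* had p = 0.000259 and *NFIL3* p = 0.000269, each with an adjusted p of 0.304. When each time point was left out in turn, p lay between 0.000148 and 0.00266 for *DBP*, between 4.93e-07 and 1.02e-05 for *TEF* and between 0.000114 and 0.00344 for *NFIL3*. With a linear trend for each condition in the fit, the adjusted p of *DBP* was 0.00295 and that of *NFIL3* 0.0649. The p values treat the 12 time points of a condition as independent libraries.

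The fitted periods of *DBP* and *TEF* were longer in 6AN. *DBP* had a period of 22.1 ± 1.21 hr (SE) in control and 26.7 ± 0.70 hr in 6AN, a difference of 4.6 ± 1.40 hr. *TEF* had 22.4 ± 0.90 hr in control and 26.8 ± 1.39 hr in 6AN, a difference of 4.4 ± 1.65 hr. For *NFIL3* the control period was poorly determined at 22.5 ± 6.22 hr, and with 24.9 ± 1.36 hr in 6AN the difference of 2.4 ± 6.37 hr was within its error. That difference ran from 0.2 hr without the 28 hr time point to 8.2 hr without the 44 hr time point. A longer period in 6AN was fitted for all 3, and for 50.0% of all tested loci. Most of those loci were not called rhythmic, and a period fitted to such a series is poorly determined. A series of 12 points covers less than 2 full cycles of these periods.

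The peak hour also differed. In a 24 hr cosine with a linear trend, *DBP* peaked at 23.7 ± 0.60 hr in control and at 8.5 ± 0.71 hr in 6AN, a delay of 8.8 ± 0.93 hr on the 24 hr circle. *TEF* peaked at 24.0 ± 0.60 hr and 8.9 ± 0.94 hr, a delay of 8.9 ± 1.11 hr. *NFIL3* peaked at 10.6 ± 2.02 hr and 20.5 ± 0.73 hr, a delay of 9.9 ± 2.15 hr. The 3 delays differed from each other by less than their SE. When each series was fitted at its own period in place of 24 hr, the gaps between the peaks within the first period were 6.0 hr for *DBP*, 6.4 hr for *TEF* and 9.2 hr for *NFIL3*. With unequal periods such a gap changes from cycle to cycle, so it is not the same measure as the 24 hr delay. Nor is the 24 hr delay separate from a change of period.

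**Figure D2:**
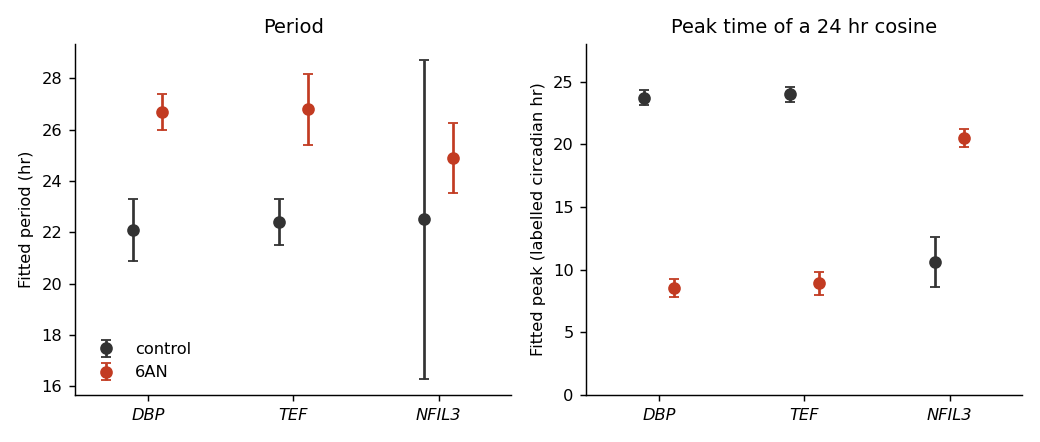
Fitted period (left, hr) and peak time of a 24 hr cosine (right, labelled circadian hr) of *DBP*, *TEF* and *NFIL3* in control (dark grey) and 6AN (red), with bars of 1 jackknife SE over the 12 time points. The *DBP* and *TEF* bars of the conditions do not meet in either panel, while the control period of *NFIL3* has an SE of 6.22 hr; on the right, 24 and 0 hr are the same hour.

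The amplitudes differed less than the peak hours. The fitted peak-to-trough fold on the FPKM + 1 scale was 1.65 in control and 2.07 in 6AN for *DBP*, 1.91 and 2.26 for *TEF*, and 1.33 and 1.52 for *NFIL3*. On the log2 scale these were 0.73 ± 0.16 and 1.05 ± 0.16 for *DBP*, 0.93 ± 0.17 and 1.18 ± 0.19 for *TEF*, and 0.41 ± 0.16 and 0.60 ± 0.12 for *NFIL3* (SE). The 6AN value was the higher for each of the 3, and the difference was not tested.

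The gaps between the peaks of the members differed between the conditions by less than their SE. *TEF* peaked 0.3 ± 0.37 hr after *DBP* in control and 0.4 ± 0.48 hr after it in 6AN. *NFIL3* peaked 10.9 ± 2.15 hr after *DBP* in control and 12 ± 1.02 hr after it in 6AN. Over the 12 libraries of a condition, Pearson's r between *DBP* and *TEF* on the log2(FPKM + 1) scale was 0.71 in control and 0.91 in 6AN. Between *DBP* and *NFIL3* it was -0.73 and -0.85, and between *TEF* and *NFIL3* it was -0.55 and -0.72. These coefficients describe series that share libraries and depth, and successive time points are not independent.

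The ratio of summed PAR-bZIP FPKM to *NFIL3* FPKM follows activator against repressor transcripts within each library, where the normalization of the library cancels. In control the ratio fell from 3.31 at 0 hr to 1.18 at 12 hr, was 3.7 at 20 and 24 hr, and reached 6.73 at 44 hr. In 6AN it rose from 2 at 0 hr to 4.06 at 8 hr, dropped to 0.983 at 20 hr, rose again to 3.85 at 32 hr and was 0.974 at 44 hr. The fitted peak of the ratio was at 23.4 ± 0.79 hr in control and 8.6 ± 0.59 hr in 6AN. Its peak-to-trough fold was 2.47 in control and 3.5 in 6AN, computed without a pseudocount and with a linear trend taken out, whereas the observed highest over lowest ratio was 5.72 in control and 4.17 in 6AN.

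**Figure D3:**
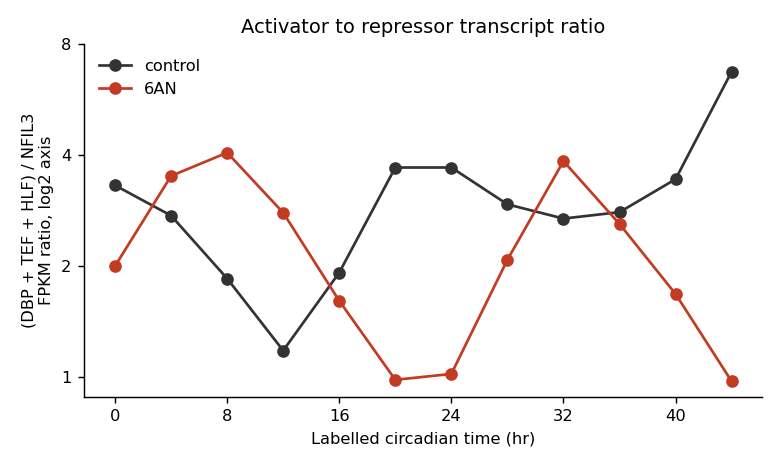
Ratio of the summed FPKM of *DBP*, *TEF* and *HLF* to that of *NFIL3* (log2 axis) against labelled circadian time in hr, control in dark grey and 6AN in red, 1 library per point. The ratio is lowest at 12 hr in control, at 1.18, and near 1 at 20, 24 and 44 hr in 6AN.

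The mean level was set side by side for the conditions. *NFIL3* was higher in 6AN at 12 of 12 time points, with a mean log2 ratio of 0.63 ± 0.48 (SD over time points) that ran from 0.06 at 12 hr to 1.65 at 44 hr. Being higher in 6AN at all 12 time points was found for 12.6% of the tested loci. *DBP* and *TEF* were higher at 8 of 12 time points each, with mean log2 ratios of 0.14 ± 0.76 and 0.22 ± 0.73, within the spread over time. *HLF* was higher at 10 of 12, with a mean log2 ratio of 0.14 ± 0.22 with a pseudocount of 1 and 0.44 with a pseudocount of 0.1. Scaling all 24 libraries by median ratios left these counts of time points as they were. The median scale factors differed by -0.05 on the log2 scale, 6AN minus control. Dividing by the factors thus raised the mean log2 ratios slightly, to 0.68 for *NFIL3*.

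The loci whose profiles were most like each member over the 24 libraries, each condition centred on its own mean, were mostly other clock genes for *DBP* and *TEF*. For *DBP* they were *TEF* (Pearson's r = 0.82), the REV-ERB beta gene *NR1D2* (0.81) and *VPS37C* (0.74), a gene of the endosomal sorting machinery. For *TEF* they were the clock repressor gene *PER1* (0.85), *DBP* (0.82) and *NR1D2* (0.81). For *NFIL3* they were *ARID5B* (0.76), *IRF2BP2* (0.73) and *SH3BP5* (0.73). The locus most unlike *DBP* was *NFIL3*, and the locus most unlike *NFIL3* was *DBP*, at -0.79. *TEF* was most unlike *ARNTL*, the gene of BMAL1, at -0.87, and this side of the ranking was looked at after the values were seen. The 24 points share libraries and depth, and the coefficients are descriptions.

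Genes that are regulated through the same elements were counted from lists, chosen with earlier results of these data known, without the members. Of the D-box class, the genes on which PAR-bZIP factors and NFIL3 are known to act within the clock, all 7 were tested and 5 passed the test of a different rhythm, namely *PER1*, *PER2*, *PER3*, *NR1D1* and *NR1D2*, while *RORA* and *RORB* did not, beside 0.783% of all tested loci. After adjustment over all loci, *PER3*, *NR1D1* and *NR1D2* were at or under 0.05 (limma adjusted p = 0.0312 for *NR1D2*), whereas *PER1* and *PER2* were not (adjusted p = 0.874 and 0.733). *PER3* had p = 4.73e-08 (limma adjusted p = 0.000347), with a peak at 0.8 hr in control and 11.3 hr in 6AN. The fitted period was longer in 6AN for 5 of the 7, and the median change was 4.8 hr against 0.0 hr over all tested loci. Of the E-box class, 7 genes were tested and 5 passed, *PER1*, *PER2*, *CRY1*, *NR1D1* and *NR1D2*, with a median period change of 5.9 hr. *BHLHE40* and *BHLHE41*, repressors of the same element, did not pass, with p = 0.394 and p = 0.246 (limma, unadjusted).

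Of the ROR-element class, the class of *NFIL3*, 4 genes were tested and 3 passed, *ARNTL*, *NPAS2* and *CRY1*, while *CLOCK* did not, again beside 0.783% of all loci. The limma adjusted p was 0.000129 for *ARNTL*, 0.00078 for *CRY1* and 0.474 for *NPAS2*. The median period change was 3.1 hr. *ARNTL* peaked at 11.6 hr in control and 22 hr in 6AN, beside the 10.6 and 20.5 hr of *NFIL3*. The others of the list peaked elsewhere in 1 or both conditions, *NPAS2* at 12.5 and 1.4 hr, *CRY1* at 3.1 and 14.4 hr and *CLOCK* at 8.0 and 1.7 hr. The lists share *PER1*, *PER2*, *CRY1*, *NR1D1* and *NR1D2*, and hence are not separate counts.

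Of 5 genes described as PAR-bZIP outputs in liver, kidney and brain, 0 passed the test of a different rhythm, and 0 were rhythmic in either condition by the umbrella test or by limma at an unadjusted p of at most 0.01. With 0.783% of all loci passing the test of the difference, a count of 0 among 5 is no result about these genes. They were *PDXK*, which makes the active form of vitamin B6, *POR* and *ALAS1*, which serve cytochrome P450 function and heme synthesis, the lipid regulator gene *PPARA* and the drug transporter gene *ABCB1*. Their p values of the rhythm difference were 0.673, 0.796, 0.378, 0.269 and 0.955 (limma, unadjusted), with an adjusted p of 1 each. All 5 were expressed, from 4.68 FPKM for *ABCB1* to 33.8 FPKM for *POR* in control. A p above the limit does not show that these genes had equal rhythms in both conditions.

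**Figure D4:**
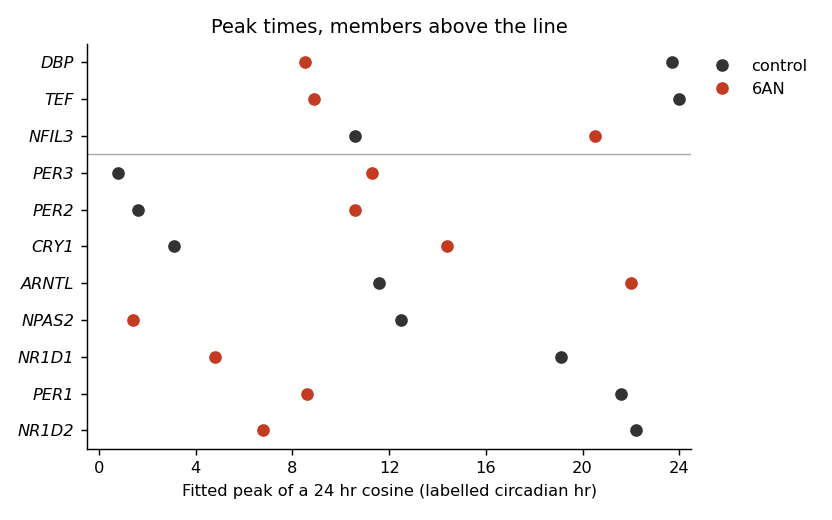
Fitted peak of a 24 hr cosine (labelled circadian hr, where 24 and 0 hr are the same hour) in control (dark grey) and 6AN (red) for the 3 tested members, above the line, and for the 8 list genes whose rhythm differed. *DBP* and *TEF* lie at 23.7 and 24.0 hr in control and 8.5 and 8.9 hr in 6AN, and *NFIL3* lies near *ARNTL* in both.

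BMAL1 and CLOCK binding was measured to ask whether the treatment changed occupancy at the genes these factors drive. It was measured at 1 time only, after 24 hr of treatment. The fitted mRNA peaks of *DBP* and *TEF* lay at 23.7 and 24.0 hr in control and at 8.5 and 8.9 hr in 6AN. A difference in the level of binding thus cannot be told apart from a difference in its timing, and neither was tested. The sites named after members were on *TEF*, *DBP* and *HLF*, with 2 for each gene in the 6AN list, and none was named after *NFIL3*. Signal is given as tags in 1000 bp per 10000000 tags of the library, with an exact 95% Poisson interval that covers counting error only. In the merged peak list of BMAL1 and CLOCK, no peak lay within 50 kb of *NFIL3* (chr9:91409044-91424626), and the nearest was 216001 bp away and came from 1 library. Within the same distance there were 4 peaks for *DBP* (chr19:48630559-48637550), 4 for *TEF* (chr22:41367332-41399328) and 2 for *HLF* (chr17:55264959-55325065).

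The inner *TEF* promoter site (chr22:41380904-41381904, centre 525 bp before the start site, annotated as promoter) had the highest BMAL1 and the highest CLOCK signal of all 439 sites, in both conditions. CLOCK signal there was 711 (631 to 798) in control and 1172 in 6AN (533.5 tags). For BMAL1 the values were 361 (control) and 394 (6AN), against medians over the sites of 26.1 and 34.8. The input at this site was 13.5 in control and 30.6 in 6AN, the latter ranking 2 of 439 by input. The CACGTG of the inner promoter window lay inside this site, 339 bp from the centre of the merged peak.

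The *DBP* promoter site (chr19:48637277-48638277), which overlaps the start of *DBP* and is named after the neighbouring gene *SEC1P* in the control list, ranked 7 of 439 by CLOCK signal in both conditions. It had a CLOCK signal of 333 (280 to 394) in control and 667 in 6AN, and a BMAL1 signal of 159 and 227. The *DBP* intron site (chr19:48634115-48635115, intron 2 of 3) had a CLOCK signal of 109 in control and 237 in 6AN, rank 18 in both, and a BMAL1 signal of 85.8 and 116. The input at the *DBP* promoter was 11.4 in control and 11.9 in 6AN.

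For *HLF*, the stronger site was not at the promoter but 26560 bp before the start site (chr17:55237900-55238900, intergenic). Its CLOCK signal was 142 in control and 304 in 6AN, and its BMAL1 signal 128 and 132. The *HLF* promoter site (chr17:55264423-55265423) had a CLOCK signal of 40.5 in control and 94.5 in 6AN and a BMAL1 signal of 23.4 and 34.2. *HLF* thus had bound sites in both conditions while its mRNA stayed under 0.7 FPKM in all 24 libraries.

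The outer *TEF* promoter site (chr22:41366813-41367813) was in the 6AN list alone and was the weakest of the 6 by CLOCK signal. CLOCK signal was 19.6 (8.47 to 38.6) in control and 50.5 (32 to 75.8) in 6AN, and BMAL1 signal was 26.8 and 19.6. The merged peak there was called in BMAL1 control, BMAL1 6AN and CLOCK 6AN and not in CLOCK control. It was centred 51 bp from the CACGTG printed above for this promoter.

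CLOCK signal was higher in 6AN at all 6 sites, as it was at 98.2% of the 439 sites. Those 439 sites were called for both factors under 6AN, so their choice favoured a higher signal of either factor in 6AN. The outer *TEF* promoter entered through the 6AN list alone. The fold on the signal + 1 scale was 1.65 at the inner *TEF* promoter, 2 at the *DBP* promoter, 2.13 at the distal *HLF* site, 2.16 at the *DBP* intron, 2.3 at the *HLF* promoter and 2.5 at the outer *TEF* promoter. The 95% counting interval of the log2 ratio lay above 0 at each, from 0.51 to 0.93 at the inner *TEF* promoter. The share of all 439 sites with such an interval was not computed for any factor or mark, so these counts do not set the members apart. A fold of at least 2 was found at 4 of the 6 sites, with the *DBP* promoter just under it before rounding, and at 57.4% of all sites, where the median log2 change was 1.10. The members' log2 changes of 0.72 to 1.32 lay around that median, and the inner *TEF* promoter ranked 325 of 439.

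BMAL1 signal was higher in 6AN at 5 of the 6 sites and at 83.1% of all sites, and it was at least 2-fold higher at 0 of the 6 and at 13.4% of all sites. The log2 change was 0.51 at the *DBP* promoter, 0.53 at the *HLF* promoter, 0.43 at the *DBP* intron, 0.12 at the inner *TEF* promoter, 0.04 at the distal *HLF* site and -0.43 at the outer *TEF* promoter. Only at the *DBP* promoter did the counting interval, 0.17 to 0.86, lie above 0. With the log2 change of the input subtracted, CLOCK at the inner *TEF* promoter changed from 0.72 to -0.40, while CLOCK stayed above 0 at the other 5 sites. BMAL1 was then above 0 at 2 of the 6 sites, the *DBP* and *HLF* promoters, and turned to -1.0 at the inner *TEF* promoter, -0.43 at the distal *HLF* site and -0.16 at the *DBP* intron. The share of all sites with such signs was not computed, and the median log2 change of the input over all sites was 0.37. The counting interval of the input change held 0 at each member site but the inner *TEF* promoter. At that promoter the input was 13.5 in control and 30.6 in 6AN, from 45 and 29.5 tags. The CLOCK signal there was 711 and 1172. Subtracting log2 changes counts the input change in full, however small the input is beside the signal. At the *HLF* promoter the input had 15 tags in control and 3.5 in 6AN. With 1 library per antibody and condition, these values compare libraries and have no replicate check.

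**Figure D5:**
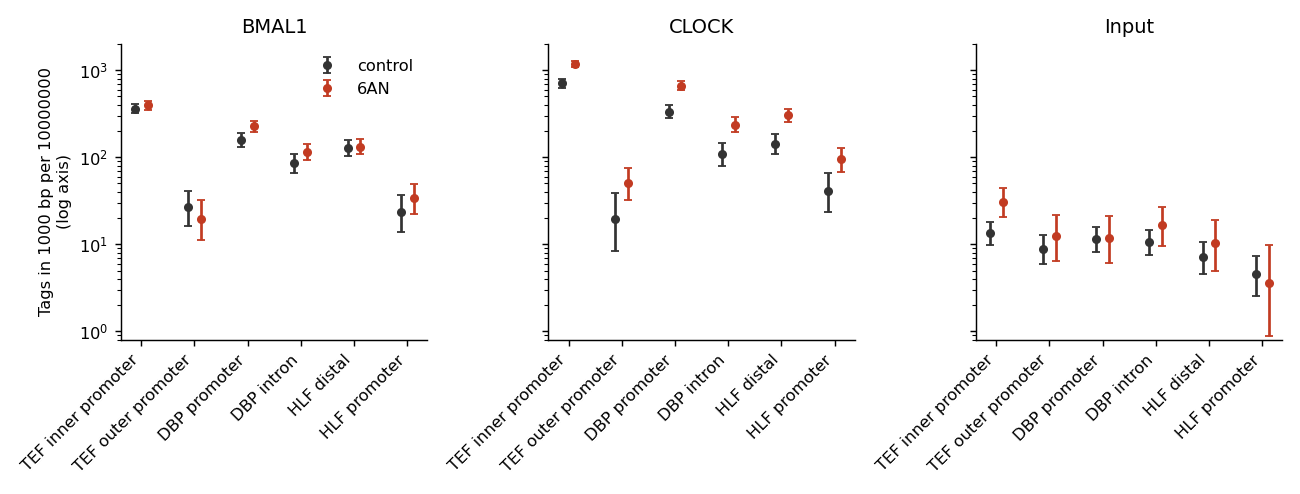
BMAL1, CLOCK and input signal (tags in 1000 bp per 10000000, log axis) at the 6 sites named after *TEF*, *DBP* and *HLF* in control (dark grey) and 6AN (red), with exact 95% Poisson intervals for counting error. CLOCK in 6AN lies above control at each site, from 711 to 1172 at the inner *TEF* promoter, and BMAL1 differs less.

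Histone marks were read at the same sites. The log2 change of H3K4me3, a mark of active promoters, ran from -0.66 to 0.52 over the 6 sites, and the counting interval held 0 at each. H3K9ac, a mark of active chromatin, was 49.7 in control and 130 in 6AN at the *DBP* intron, as tags per 10000000. This was a log2 change of 1.37 with an interval that lay above 0, beside a median of 0.15 over all sites. The control value rested on 7 tags, and the change was 0.78 with the log2 change of the input subtracted. At the other 5 sites the H3K9ac change ran from 0.13 to 0.79 with intervals that held 0. The H3K9ac control library had 1409550 tags and the 6AN library 4700142, which left 1.5 tags at the *HLF* promoter in control. At the inner *TEF* promoter, the site of highest CLOCK signal, H3K4me3 was 144 in control and 136 in 6AN, close to the medians over the sites of 140 and 136.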

How the data were processed

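The authors deposited FPKM (fragments per kilobase of transcript per 1000000) for each locus in separate tables for control and 6AN, which were normalized apart from each other. The submitters' processing notes name Bowtie, TopHat, Cufflinks, Bowtie2 and HOMER and hg38, and the versions are not given in the sources used here. RNA was rRNA-depleted and sequenced single-end. For ChIP-seq, the authors deposited HOMER signal at shared BMAL1/CLOCK sites, as tags in 1000 bp scaled to 10000000 tags per library, and a HOMER peak score for each merged peak, which was used only for peak positions. Tags came in steps of 0.5, which was kept in the intervals. No column of sample values was omitted.

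Loci with a mean of at least 0.7 FPKM over 24 libraries were tested, 14678 of 28690. A pseudocount of 1 was added before logarithms. The umbrella test, built after RAIN, folded the times into 6 phases, compared 18 shapes and took p from 2000000 random orders. Rhythm differences were tested with limma 3.58.1 (eBayes with trend) in R 4.3.3, and p values were adjusted by Benjamini-Hochberg over all tested loci. A cosine and a linear trend were fitted for periods on a grid of 16 to 32 hr in steps of 0.1 hr. Other values were computed in Python 3.11.15 with NumPy 2.4.6, pandas 2.3.3 and SciPy 1.17.1. The methods were tested on simulated data.

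Genes named were the members, the genes of 4 lists and the 3 loci most like each tested member, and sites were those named after a member. The lists held 1 further gene, which is not reported here. The members and lists were chosen with earlier results of these data known. Levels across the separately normalized tables and ChIP-seq changes were not tested. Alternatives covered pseudocounts, filters, trends, scaling, p limits, period grids, input subtraction and omission of each time point.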

Additional observations from a re-analysis of the deposited data

Results flagged for a closer look

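The 24 hr rhythm of all 3 tested members differed between 6AN and control by the limma test of the difference itself. The unadjusted p was 5.98e-07 for *TEF*, 0.000259 for *DBP* and 0.000269 for *NFIL3*, and the adjusted p over all tested loci was 0.0022 for *TEF* and 0.304 for *DBP* and *NFIL3*. The fitted peak was later in 6AN by 8.9 ± 1.11 hr, 8.8 ± 0.93 hr and 9.9 ± 2.15 hr (SE). Groups held 12 libraries or 1, so single libraries were not tested for lying apart.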

How the results depend on the processing

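The count of members with a different rhythm stayed at 3 under every alternative tried, and leaving out each time point gave 3 throughout. The count rhythmic in control, 0 by the umbrella test, was 1 (*TEF*) with harmonic regression and with a p limit of 0.05, and 1 to 1 when each time point was left out of the harmonic regression. The count in 6AN, 3 by the umbrella test, was 0 with a p limit of 0.001. It was 3 to 3 when each time point was left out of the harmonic regression. The umbrella test was not rerun with time points left out. Beside the peak delays of 8.8 hr for *DBP* and 8.9 hr for *TEF*, the gaps within the first period were 6.0 and 6.4 hr at each series' own period. The delay of *DBP* was 10.7 hr without a linear trend. Leaving out each time point gave delays of 8.2 to 9.5 hr for *DBP*, 8.1 to 9.6 hr for *TEF* and 7.9 to 11 hr for *NFIL3*. Period changes then ran from 3.8 to 5.8 hr, 3.5 to 5.5 hr and 0.2 to 8.2 hr. Mean log2 level ratios ran from 0.04 (without 12 hr) to 0.27 (without 44 hr) for *DBP*, 0.13 to 0.32 for *TEF*, 0.10 to 0.18 for *HLF* and 0.54 to 0.68 for *NFIL3*, and that of *HLF* was 0.44 with a pseudocount of 0.1. With the input change subtracted, the log2 change of BMAL1 was reversed to -1.0 at the inner *TEF* promoter, -0.43 at the distal *HLF* site and -0.16 at the *DBP* intron, and that of CLOCK to -0.40 at the inner *TEF* promoter. CLOCK was then 0.62 at the distal *HLF* site and 0.52 at the *DBP* intron. At the distal *HLF* site and the *DBP* intron the counting interval of the input change itself held 0. At the inner *TEF* promoter the input was 13.5 in control and 30.6 in 6AN, beside CLOCK signals of 711 and 1172. Its log2 change was subtracted in full all the same. The causes were not tested. A single library per time, antibody and condition limits every value, and *HLF* rests on 2 to 34 fragments per library. The labels give no replicate numbers. With the labelled time as a block, an alternative chosen after seeing the data, 3 members again passed. Over all tested loci, 115 passed this test, 186 with the block and 239 with a linear trend, and the trend raised the loci called in 6AN by limma from 173 to 285.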
